A study of Mus musculus with 31 samples.

Results

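The prostaglandin synthesis genes described here are 8 genes that release arachidonic acid, turn it into prostaglandins E2 and D2, or break these down: Pla2g4a, Ptgs1, Ptgs2, Ptges, Ptges2, Ptges3, Ptgds and Hpgd. They were chosen by gene symbol from 55401 genes listed in each library, with earlier results of these data known. All 8 were found and passed the filter on low counts, as did 14490 genes in all. RNA of sorted mouse astrocytes, the star-shaped support cells of the brain, was sequenced in 12 libraries, 3 in each of 4 groups, all from female C57Bl/6 mice aged 10 weeks and kept under SPF conditions. In the 2X cytokine group IL-1β at 100 ng/mL with TNF-α at 50 ng/mL went into both lateral ventricles of the brain, and again on day 7. The 2X PBS group received PBS on the same schedule. In the 1X cytokine group the same cytokine mix was injected on day 7 only, and the 1X PBS group received PBS on day 7 only. Astrocytes were sorted 18 to 24 hours after the day 7 injection, and each control group received as many injections as its cytokine group. A short label names TNF-α alone for the cytokine groups, while the protocol names both cytokines. No source used here gives the markers of the sort. The labels also leave unsaid whether a library is 1 animal or a pool, so the spread behind each p-value is that of libraries and may be technical.

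Prostaglandins are lipid messengers of inflammation, fever, pain and sleep. A phospholipase cuts arachidonic acid out of the membrane, a cyclooxygenase turns it into the unstable prostaglandin H2, and a terminal synthase decides which prostaglandin is made from it. Of both cyclooxygenases, Ptgs1 is usually expressed steadily and Ptgs2 is the form induced by inflammatory signals, and IL-1β and TNF-α are textbook inducers of Ptgs2 together with Ptges, the microsomal prostaglandin E synthase.

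Before the results, some facts on the libraries. Totals ran from 1878418 to 5521679 estimated counts, so that 3 counts corresponded to 0.543 to 1.6 CPM (counts scaled to library size, with TMM factors). The astrocyte markers were present in every library: Aqp4 lay between 266 and 789 CPM and Slc1a2 between 546 and 2176 CPM. Neuronal markers were detected as well, with the 12 listed summing to 227 to 309 CPM per library. Of these 12 only Slc17a7 was at 0 in all libraries. Markers of other cells were also detected in every library, with summed levels given beside the results they move with. In 2 libraries the pattern over all genes went against their label. On the first principal component, which held 45.4% of the variance, 1X cytokine replicate 1 scored 40.6 against -30.2 and -40.0 in replicates 2 and 3 of its group. For 1X PBS replicate 1 the score was -42.1 against 68.6 and 68.1 in its group. Fits without these 2 libraries, added after the data had been seen, are given beside those of all 12.

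The promoters shown here belong to the 3 genes that were lower together after 2 cytokine injections (Ptgs2, Ptges and Pla2g4a) and to Ptgs1, the constitutive counterpart of Ptgs2. Each is 280 bases long, from 250 bases before to 30 bases after the RefSeq start, on build GRCm38.p6. RefSeq listed a start for all 8 genes. Capitals mark matches, on either strand, to any of 8 motifs: CGTCA, the core of the cAMP response element; CACGTG, the E box; TTGCNNAA, bound by C/EBP factors; TGANTCA, bound by AP-1; GGGCGG, the GC box; TATAAA, the TATA box; TTCNNNGAA, bound by STAT factors; and the NF-kB consensus.
Ptgs2 promoter, chr1:150099781-150100060, plus strand: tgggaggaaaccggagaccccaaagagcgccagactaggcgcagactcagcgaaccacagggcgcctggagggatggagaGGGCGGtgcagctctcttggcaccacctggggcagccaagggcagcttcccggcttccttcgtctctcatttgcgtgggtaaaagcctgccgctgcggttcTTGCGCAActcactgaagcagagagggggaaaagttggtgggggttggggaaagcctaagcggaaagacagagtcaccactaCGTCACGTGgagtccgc
Ptges promoter, chr2:30903268-30903547, minus strand: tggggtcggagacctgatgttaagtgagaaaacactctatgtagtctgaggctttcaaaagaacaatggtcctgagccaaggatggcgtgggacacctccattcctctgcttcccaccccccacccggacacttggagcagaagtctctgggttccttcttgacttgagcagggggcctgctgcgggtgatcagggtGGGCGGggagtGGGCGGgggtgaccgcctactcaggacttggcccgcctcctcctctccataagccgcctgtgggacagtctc
Pla2g4a promoter, chr1:149961261-149961540, minus strand: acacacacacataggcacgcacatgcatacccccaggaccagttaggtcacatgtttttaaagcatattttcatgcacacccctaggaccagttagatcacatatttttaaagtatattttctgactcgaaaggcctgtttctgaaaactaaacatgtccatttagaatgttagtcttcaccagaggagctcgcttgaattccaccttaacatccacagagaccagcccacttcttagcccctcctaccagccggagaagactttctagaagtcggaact
Ptgs1 promoter, chr2:36230176-36230455, plus strand: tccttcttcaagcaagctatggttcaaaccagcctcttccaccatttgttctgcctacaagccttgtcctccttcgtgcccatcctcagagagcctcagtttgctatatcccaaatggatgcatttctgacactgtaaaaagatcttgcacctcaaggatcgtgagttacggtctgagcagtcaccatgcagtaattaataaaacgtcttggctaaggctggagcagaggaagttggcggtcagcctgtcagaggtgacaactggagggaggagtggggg
The Ptgs2 window held CGTCA from base 14 after the start, overlapping CACGTG from base 17, a TTGCNNAA match from base -69 and a GC box from base -170. In the Ptges window 2 GC boxes began at bases -53 and -42. Those of Pla2g4a and Ptgs1 held none of the 8. Over 32851 RefSeq promoters cut the same way, 19.9% held CGTCA, 6.79% CACGTG, 10.4% TTGCNNAA and 34.7% GGGCGG. The shares for the motifs with no match in these 4 windows were 7.46% for TGANTCA, 13.1% for TATAAA, 7.83% for TTCNNNGAA and 4.22% for the NF-kB consensus. A match describes letters in the window, not a bound site.

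Per transcript length, Ptgds was by far the most abundant of the 8. It encodes lipocalin-type prostaglandin D synthase, which is also a lipid carrier of the cerebrospinal fluid. Its level was 3587 ± 1247 TPM (a level per transcript length and library size; SD, n = 12 libraries), from 2201 to 6716 TPM, the 22nd highest mean among the genes tested, and it made up 89.0 to 97.2% of the summed TPM of the 8 genes. Ptges3, a cytosolic prostaglandin E synthase better known as the HSP90 co-chaperone p23, followed with 74.1 to 154 TPM. Ptges had 34.8 ± 14.1 TPM, Ptgs2 24.6 ± 22.0 TPM and Ptgs1 16.3 ± 4.57 TPM over the 12 libraries. Hpgd, which encodes the enzyme that inactivates prostaglandins, had 9.92 ± 2.07 TPM. Pla2g4a, the cytosolic phospholipase A2, had 8.48 ± 3.41 TPM and Ptges2, a second membrane-bound prostaglandin E synthase, 4.98 ± 1.98 TPM. The ranges of Ptgds, Ptges3 and Ptges did not overlap, whereas from Ptges downwards each gene overlapped its neighbour in the order. Ptgs2, with its short transcript Ptgs2-202 included, was above Ptgs1 in 6 of 12 libraries, and Ptges above Ptgs2 in 10 of 12.

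**Figure D1:**
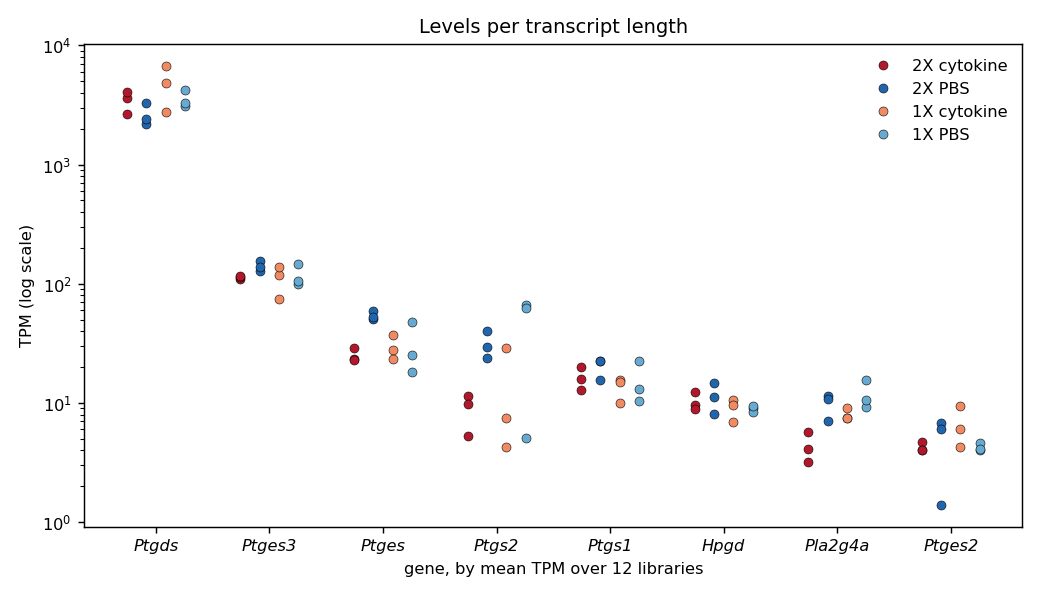
Level of each gene in TPM on a log scale, 1 point per library, coloured by group, with genes ordered by their mean over 12 libraries. Ptgds lay at 2201 to 6716 TPM in every library, Ptges3 between 74.1 and 154 TPM, and the other 6 genes at 66.4 TPM or less, each overlapping its neighbour.

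In the 6 libraries of the 2X groups, RNA of the sorted cells held less Ptgs2, Ptges and Pla2g4a after cytokine than after PBS. In the fit of these 6 libraries, Ptgs2 was 3.43-fold lower, Ptges 2.2-fold lower and Pla2g4a 2.1-fold lower. These 3 of 8 genes passed an adjusted p of 0.05 in that fit, where 7.74% of all 13765 genes tested passed and 5.31% passed as lower. In the fit of all 12 libraries, which shares one estimate of the spread over the 4 groups, 0 of 8 passed in edgeR, against a background of 0.0345% of 14490 genes. There 4 of the 8 had an unadjusted p under 0.05, as did 1402 of the 14490 genes, and DESeq2 on the same libraries called 1, Ptges, where 0.787% of genes were called. The same 3 genes passed without the low count filter (1.37% of genes) and without both 1X replicates numbered 1 (7.02% of genes, 5.16% as lower), and Ptges passed without 1X PBS replicate 1 (0.827% of genes). The fold changes of both fits were nearly the same, and the coefficient of variation between replicates was 0.237 with all 12 libraries and 0.114 with these 6. In bulk RNA, fewer cells of a type and less RNA per cell cannot be told apart.

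Pla2g4a (ENSMUSG00000056220.14, chr1:149829618-149961290, minus strand, GRCm38) opens the pathway by cutting arachidonic acid from phospholipids. Its levels were 6.07, 7.54 and 8.7 CPM in the 2X cytokine libraries, against 11.9, 20.6 and 13.6 CPM in the 2X PBS libraries, and no cytokine library reached the lowest PBS library. The log2 fold change was -1.07 ± 0.27 (SE) at an adjusted p of 0.0305 in the fit of the 6 libraries and -1.06 ± 0.28 at an adjusted p of 0.306 in that of all 12 by edgeR. With only 17 to 29 estimated counts per 2X cytokine library, its call was lost in 4 of 6 fits that left out 1 library, those without 2X cytokine replicate 1 or 2 or 2X PBS replicate 2 or 3. Over those 6 fits the log2 fold change ran from -1.22 to -0.77.

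Ptgs2 (ENSMUSG00000032487.8, chr1:150100031-150108227, plus strand) had the lowest fold change of the 8. It had 12.5, 15.8 and 14.7 CPM in the 2X cytokine libraries, against 44.0, 58.3 and 44.4 CPM in the 2X PBS libraries. The 3 cytokine libraries lay close together and far below the PBS libraries. The log2 fold change was -1.78 ± 0.17 (SE, adjusted p = 4.09e-05) with the 6 libraries and -1.78 ± 0.71 (adjusted p = 0.472) with all 12, both by edgeR. Leaving out any 1 of the 6 libraries gave -1.86 to -1.62, with adjusted p at most 0.000502. Its antisense genes Ptgs2os and Ptgs2os2 stayed at or under 0.888 and 2.75 CPM in every library. Ptgs1 (ENSMUSG00000047250.13, chr2:36230426-36252272, plus strand) overlaps Gm43621 on the other strand. It was more even: 24.3, 23.7 and 23.4 CPM in 2X cytokine libraries, against 29.6, 33.4 and 34.9 CPM in 2X PBS libraries. Its groups did not overlap either, but at a log2 fold change of -0.45 ± 0.14 the adjusted p by edgeR was 0.0642 with the 6 libraries. Set against each other in TPM, the ratio of Ptgs2 to Ptgs1 was 0.717, 0.415 and 0.49 in 2X cytokine libraries and 1.53, 1.8 and 1.31 in 2X PBS libraries. These ratios rest in part on Ptgs2-202, a transcript of 358 bases whose TPM comes from few reads: in 2X PBS libraries it took 41.2, 54.7 and 54.1% of the Ptgs2 TPM from 2.89, 16.1 and 6.95 estimated counts. The long transcript Ptgs2-201 alone had 3.77, 5.32 and 4.72 TPM in 2X cytokine libraries, against 14.0, 18.3 and 13.6 TPM in 2X PBS libraries, in each library below the Ptgs1 level of 12.8 to 20.1 TPM (2X cytokine) or 15.5 to 22.7 TPM (2X PBS). That Ptgs1 level includes its own short transcripts. A processed transcript of 573 bases took 24.9 and 19.7% of the Ptgs1 TPM in 2X PBS replicates 2 and 3, from 8.23 and 3.88 estimated counts. The long transcript Ptgs1-201 alone had 15.5, 16.9 and 17.2 TPM in 2X PBS libraries 1 to 3. Against it, Ptgs2-201 was higher in replicate 2 and lower in replicates 1 and 3. Which cyclooxygenase transcript was the more abundant in 2X PBS libraries therefore depends on the short transcripts of both genes.

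**Figure D2:**
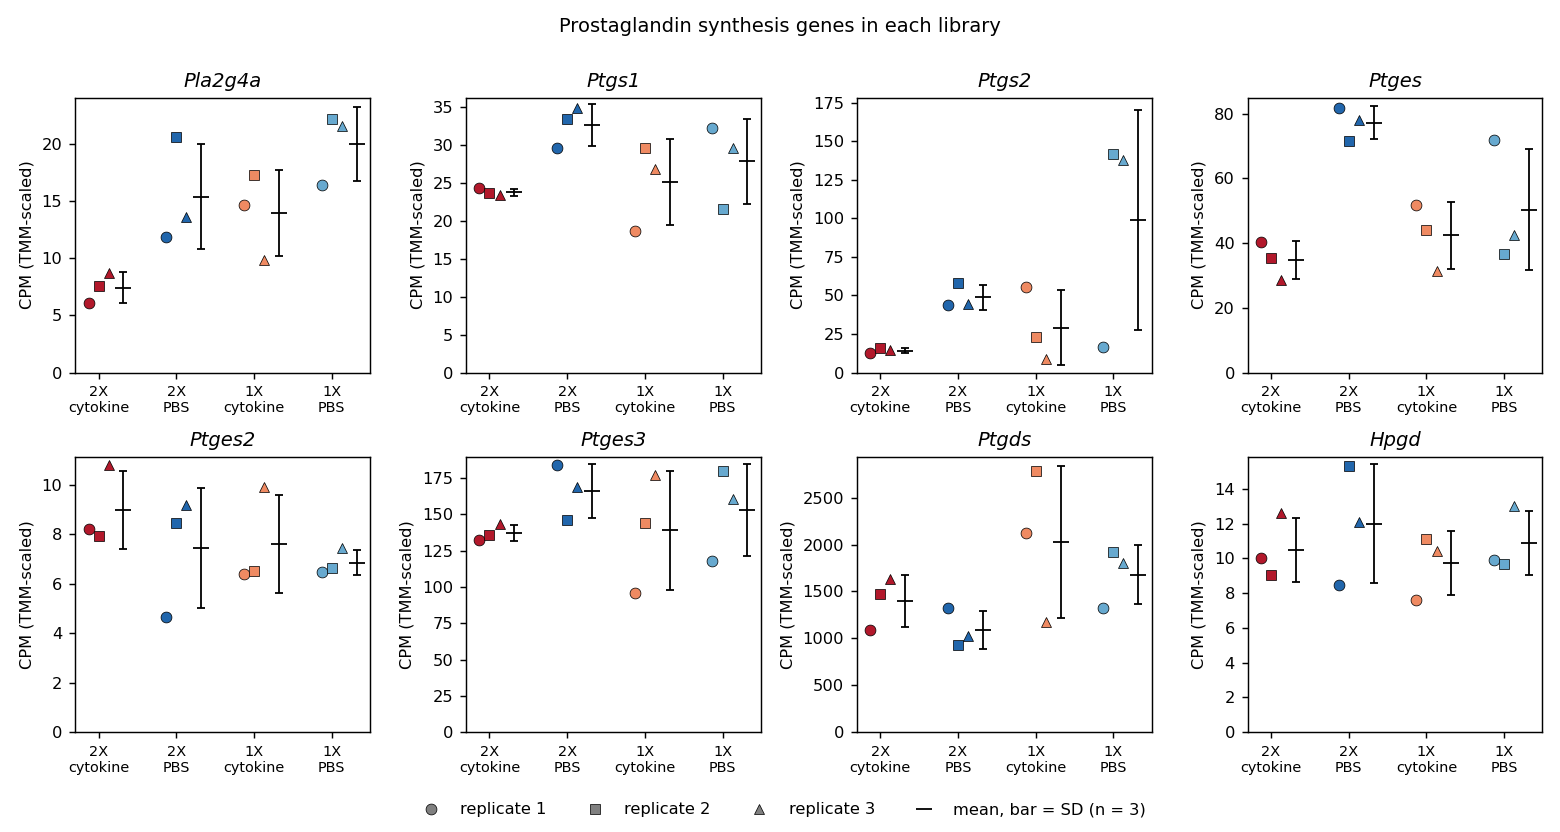
TMM-scaled CPM of each gene in every library, with the marker giving the replicate number, and the group mean with its SD (n = 3) beside the points. For Ptgs2 the 2X cytokine libraries lay at 12.5 to 15.8 CPM and the 2X PBS libraries at 44.0 to 58.3 CPM, and in the 1X groups the replicates numbered 1 stood apart from the other two.

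Ptges (ENSMUSG00000050737.13, chr2:30889471-30929863, minus strand) encodes the inducible synthase that turns prostaglandin H2 into E2. It had 40.3, 35.4 and 28.5 CPM in the 2X cytokine libraries, against 81.7, 71.6 and 78.2 CPM in the 2X PBS libraries, with a wide gap between the groups. Its log2 fold change was -1.14 ± 0.13 (SE, adjusted p = 0.00021) with the 6 libraries and -1.15 ± 0.25 (adjusted p = 0.2) with all 12, by edgeR. The call held whichever of the 6 libraries was left out, at -1.27 to -1.01. About as much of the Ptges signal was assigned to a short processed transcript, Ptges-201, as to the coding Ptges-202, which took 43.5 to 68.2% of the TPM over the 12 libraries. The gene overlaps Gm13400 on the same strand, so the division of reads between them is uncertain.

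The other prostaglandin E synthases did not pass. Ptges3 (ENSMUSG00000071072.12, chr10:128058954-128077272, plus strand) had 132, 136 and 143 CPM in the 2X cytokine libraries, against 184, 146 and 169 CPM in the 2X PBS libraries, and the groups did not overlap. Its log2 fold change was -0.26 ± 0.10 (SE), with an adjusted p of 0.152 by edgeR in the fit of 6. Ptges2 (ENSMUSG00000026820.5, chr2:32395896-32405772, plus strand) had 8.21, 7.91 and 10.8 CPM in 2X cytokine libraries, against 4.66, 8.45 and 9.18 CPM in 2X PBS libraries, which overlapped, at 0.25 ± 0.30. A retained-intron transcript took 0 to 76.3% of the Ptges2 TPM over the 12 libraries. Reads of Ptges3 can also be shared with its pseudogene Ptges3-ps, which had 4.2 to 13.6 CPM in 2X cytokine libraries and 4.23 to 7.62 CPM in 2X PBS libraries. One difference within Ptges3 was seen after its values were examined, and has no test. The coding isoform Ptges3-202 took 15.4, 13.6 and 5.57% of the gene's TPM in the 2X cytokine libraries 1 to 3, against 26.8, 27.2 and 20% in the 2X PBS libraries 1 to 3. In 1X libraries 1 to 3 it took 10.3, 17.4 and 18.3% after cytokine and 31.9, 22.7 and 26.2% after PBS. The cytokine libraries, including replicate 1, thus lay below every PBS library of the same schedule. In the 2X cytokine libraries this share rests on 20.2 to 45.4 estimated counts. Shares of other transcripts separated too, such as Ptgds-204 at 0 to 3.83% in 2X cytokine and 7.58 to 9.17% in 2X PBS libraries, which overlapped in the 1X groups. How many transcripts of all genes separate in this way was not counted.

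Ptgds (ENSMUSG00000015090.13, chr2:25466709-25470046, minus strand), on the branch to prostaglandin D2, was the one gene besides Ptges2 with a higher mean after 2 cytokine injections. It had 1093, 1470.5 and 1628 CPM in the 2X cytokine libraries, against 1318, 924 and 1027 CPM in the 2X PBS libraries, and the groups overlapped. The log2 fold change was 0.37 ± 0.15 (SE) at an adjusted p of 0.19 by edgeR with the 6 libraries. Without 2X cytokine replicate 1 it was 0.52 at an adjusted p of 0.0447. Hpgd (ENSMUSG00000031613.9, chr8:56294585-56321043, plus strand), which overlaps Gm45540 on the same strand, had 10.0, 9.04 and 12.6 CPM in 2X cytokine libraries, against 8.46, 15.3 and 12.1 CPM in 2X PBS libraries. Its groups overlapped, and its log2 fold change was -0.21 ± 0.26. Counted over the 8 genes, 6 had a lower and 2 a higher mean, at a median log2 fold change of -0.36 against 0.01 over all genes tested. The groups did not overlap for 5 genes, all lower (Pla2g4a, Ptgs1, Ptgs2, Ptges and Ptges3), where 14.1% of all genes were lower and 11.2% higher without overlap.

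Markers of several other cell types moved with these results. Summed over 12 genes, the monocyte and macrophage markers were at 12.3 to 78.9 CPM in 2X cytokine libraries, against 452 to 456 CPM in 2X PBS libraries. The 10 neutrophil markers summed to 13.8 to 149 CPM in 2X cytokine libraries and 288 to 393 CPM in 2X PBS libraries. In the fit of the 6 libraries 7 of 9 tested monocyte and macrophage markers, 5 of 7 tested neutrophil markers and 4 of 12 microglia markers passed as lower, and no marker of these 3 lists was at 0 in all libraries of any group. Over the 12 libraries Ptgs2 was at 8.79 to 23.0 CPM where the monocyte and macrophage sum was 78.9 CPM or less, and at 44.0 CPM or more in the other 6 libraries, where that sum was 452 CPM or more. The 13 oligodendrocyte markers summed to 6007 to 7176 CPM in 2X cytokine libraries and 3190.1 to 4600.2 CPM in 2X PBS libraries, and 9 of 13 passed as higher. Of 15 mural cell and fibroblast markers 5 passed as lower (Dcn, Col3a1, Rgs5, Kcnj8 and Lum), with the list summing to 4580.1 to 6924 CPM in 2X cytokine libraries and 5641 to 6679 CPM in 2X PBS libraries. Of 12 astrocyte markers 2 passed as higher and 1 as lower, and of 10 ependymal markers 3 as higher. Markers of the choroid plexus, the tissue that makes cerebrospinal fluid, summed to 3928 to 14553 CPM in 2X cytokine libraries and 13780.4 to 15943 CPM in 2X PBS libraries, and 0 of 10 passed in edgeR. The part of these cells in the results was not tested.

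**Figure D3:**
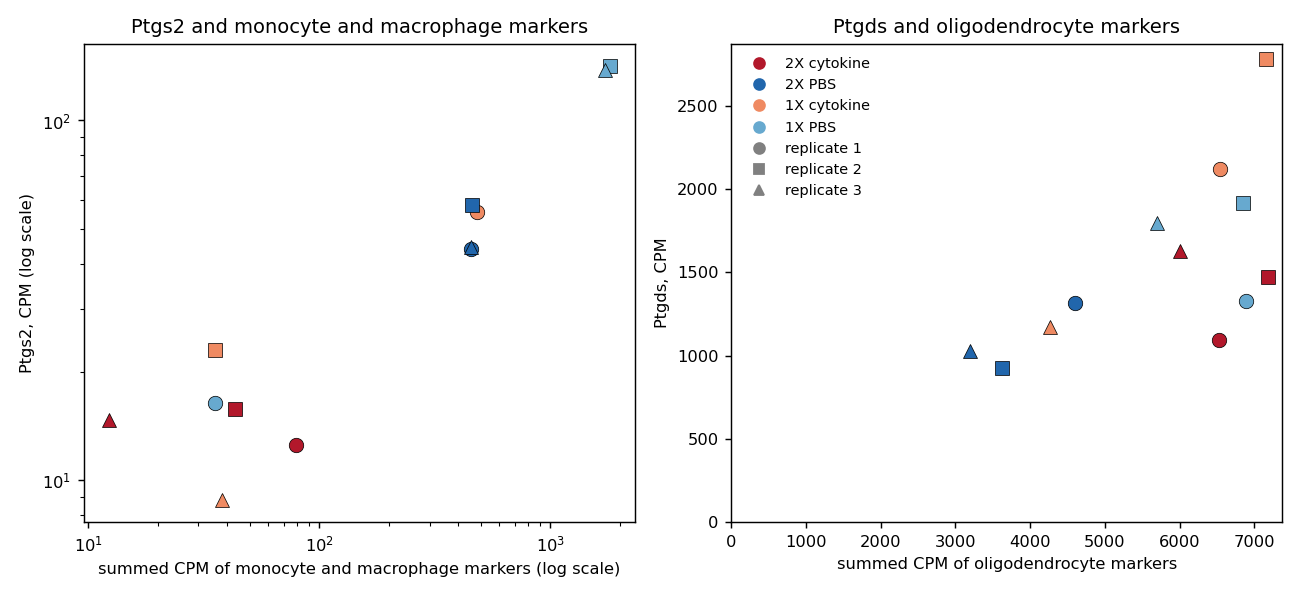
Left, Ptgs2 in CPM against the summed CPM of 12 monocyte and macrophage markers, both on log scales; right, Ptgds in CPM against the summed CPM of 13 oligodendrocyte markers; 1 point per library, coloured by group and shaped by replicate number. The 6 libraries with a monocyte and macrophage sum of at least 452 CPM had Ptgs2 at 44.0 CPM or more and the other 6 at 23.0 CPM or less, and the lowest Ptgds level, 924 CPM, was in a 2X PBS library with 3625 CPM of oligodendrocyte markers.

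After a single injection Ptgs2 varied widely within both groups, and no difference passed in the fit of all 12 libraries. Ptgs2 had 55.8, 23.0 and 8.79 CPM in the 1X cytokine libraries 1 to 3, against 16.4, 142 and 138 CPM in the 1X PBS libraries 1 to 3. The highest cytokine value and the lowest PBS value belonged to the replicates numbered 1, the 2 libraries whose overall pattern went against their label. The log2 fold change was -1.69 ± 0.66 (SE, adjusted p = 0.866) with all 12 libraries by edgeR. Without those 2 libraries it was -3.03 ± 0.26 (adjusted p = 1.93e-06, edgeR), an 8.17-fold lower level after cytokine. Leaving out the highest cytokine and the lowest PBS value widens the difference and narrows the spread by itself. That adjusted p therefore cannot be taken as a measure of a cytokine effect. Ptgs2 also passed without 1X PBS replicate 1 alone, which held that lowest PBS value, at -2.12 ± 0.41 (adjusted p = 0.0159, 7.55% of all genes called). With all 12 libraries and no low count filter it passed as well (adjusted p = 0.00382, 0.748% of all genes called). The monocyte and macrophage markers split the same way: they summed to 479, 35.3 and 37.9 CPM in 1X cytokine libraries 1 to 3, against 35.4, 1813 and 1717 CPM in 1X PBS libraries 1 to 3. In the fit without both replicates numbered 1, 10 of 11 monocyte and macrophage, 7 of 8 neutrophil, 8 of 11 endothelial, 8 of 10 ependymal and 7 of 7 erythrocyte markers passed as lower after cytokine, and 11 of 12 astrocyte markers as higher (median log2 fold change 1.56). The 12 astrocyte markers summed to 10383, 20447 and 23045 CPM in 1X cytokine libraries 1 to 3, against 26632, 7459 and 6992 CPM in 1X PBS libraries 1 to 3. For each of these lists, the left-out cytokine and PBS libraries held extreme sums of their groups, on opposite sides. Leaving them out therefore widens these marker differences by itself, and the marker counts carry the limit given for Ptgs2. The part of these cells in the result was not tested. The ratio of Ptgs2 to Ptgs1 in TPM was 2.85, 0.486 and 0.285 in 1X cytokine libraries 1 to 3 and 0.229, 6.44 and 4.78 in 1X PBS libraries 1 to 3.

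None of the other 7 genes passed after a single injection, with or without the replicates numbered 1. In edgeR 0 of 8 passed with all 12 libraries, beside a background of 0% of 14490 genes, and DESeq2 called 0 of 8 at a background of 0.0138%. Both tools gave 1 gene, Ptgs2, an unadjusted p under 0.05, as edgeR did for 783 of all 14490 genes and DESeq2 for 674. Without both replicates numbered 1, Ptgs2 was the 1 gene of 8 called, where 23.5% of all genes were called and 11.5% called lower. No gene of the 8 separated the 1X groups without overlap, against 6.18% of all genes. Ptges, lower after 2 cytokine injections, had 51.9, 44.2 and 31.3 CPM in 1X cytokine libraries, against 71.9, 36.8 and 42.4 CPM in 1X PBS libraries. Its log2 fold change was -0.22 ± 0.25 with all 12 libraries and -0.03 ± 0.19 without the replicates numbered 1. Pla2g4a had 14.7, 17.3 and 9.89 CPM in 1X cytokine libraries, against 16.4, 22.2 and 21.6 CPM in 1X PBS libraries, at -0.51 ± 0.26 with all 12 libraries and -0.62 ± 0.30 without the replicates numbered 1. Ptgds ranged from 1174 to 2780.3 CPM in 1X cytokine libraries and from 1326 to 1916 CPM in 1X PBS libraries, at 0.27 ± 0.29 with and 0.11 ± 0.30 without these 2 libraries. Ptgs1, Ptges2, Ptges3 and Hpgd overlapped between the groups, with log2 fold changes between -0.19 and 0.11 with all 12 libraries and between -0.07 and 0.21 without the replicates numbered 1, each within its SE. That of Ptgs1 was -0.17 ± 0.20 in the first fit and 0.16 ± 0.19 in the second.

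**Figure D4:**
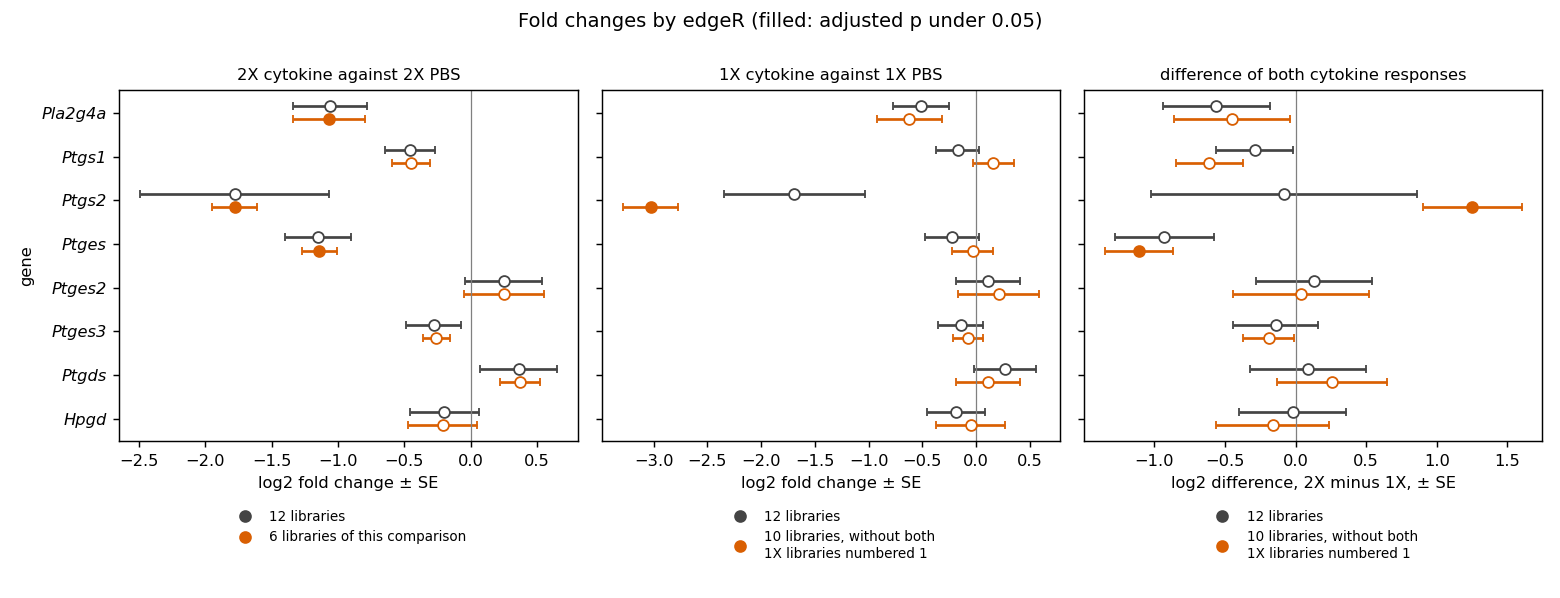
Log2 fold change with its SE for each gene by edgeR in 3 comparisons; dark grey points are the fit of all 12 libraries, orange points that of the 6 libraries of the comparison or that without both 1X replicates numbered 1, and filled points have an adjusted p under 0.05. Left of zero is lower after cytokine in the first 2 panels, where Ptgs2 lay at -1.78 after 2 injections and at -1.69 or -3.03 after 1, and in the third panel Ptgs2 at 1.25 and Ptges at -1.11 passed without the replicates numbered 1.

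The size of the cytokine effect on the 2 schedules could be compared directly, as the 2X difference minus the 1X difference. With all 12 libraries 0 of 8 genes passed in edgeR, at a background of 0%, and 0 of 8 in DESeq2, at a background of 0.0897%; both gave Ptges alone an unadjusted p under 0.05, as edgeR did for 754 of all genes and DESeq2 for 628. There the log2 difference was -0.08 ± 0.94 (SE) for Ptgs2 and -0.93 ± 0.35 for Ptges. Without both 1X replicates numbered 1, Ptgs2 was at 1.25 ± 0.35 (adjusted p = 0.0426, edgeR), since its drop was -1.78 after 2 injections and -3.03 after 1. The second drop leaves out the highest 1X cytokine and the lowest 1X PBS value of Ptgs2. The limit given above therefore holds here too. Ptges was at -1.11 ± 0.24 (adjusted p = 0.0107), with -1.14 after 2 injections and -0.03 after 1. So 2 of 8 passed, in opposite directions, where 9.33% of all genes did, 6.12% as lower and 3.21% as higher. The setting also leaves out the highest Ptges value of each 1X group, 51.9 CPM after cytokine and 71.9 CPM after PBS. With all 12 libraries the 1X change of Ptges was -0.22 ± 0.25. Its adjusted p therefore cannot be taken as a measure of a schedule effect either. In the same fit 11 of 12 astrocyte markers passed as lower in this difference and 6 of 8 neutrophil markers as higher, and their part was not tested. The left-out libraries held extreme 1X sums of both marker lists, which by itself widens the 1X difference of these markers. For Ptgs2 and Ptges the PBS groups also differed between schedules in that fit. Ptgs2 was lower in 2X PBS than in 1X PBS, at -1.47 ± 0.18 (adjusted p = 9.69e-05, edgeR), and Ptges higher, at 0.97 ± 0.16 (adjusted p = 0.000669). With all 12 libraries neither passed, at -1.02 ± 0.64 for Ptgs2 and 0.62 ± 0.24 for Ptges (adjusted p = 0.787 and 0.763, edgeR).

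The schedules were also compared between groups that received the same liquid. Between the cytokine groups, a further exposure to the cytokines goes with the further injection. Between 2X and 1X cytokine 0 of 8 genes passed in edgeR with all 12 libraries (background 0.0276%), in DESeq2 (0.0552%) or without the replicates numbered 1 (0.0202%). In each of these 3 fits Pla2g4a alone had an unadjusted p under 0.05, as did 1015, 870 and 1421 of all genes. It was also the 1 gene without overlap, lower in 2X cytokine at 6.07 to 8.7 CPM against 9.89 to 17.3 CPM in 1X cytokine libraries, where 6.76% of all genes were lower without overlap. Its log2 fold change was -0.92 ± 0.28 (SE, adjusted p = 0.689, edgeR), and -0.88 ± 0.32 (adjusted p = 0.409) without the replicates numbered 1. Between 2X and 1X PBS 0 of 8 passed with all 12 libraries (background 0%; 1 gene, Ptges, with an unadjusted p under 0.05, as 914 of all genes), and DESeq2 called 0 of 8 (background 0.117%; 2 genes, Ptges and Ptgds, with an unadjusted p under 0.05, as 792 of all genes). Without the replicates numbered 1, Ptgs2 and Ptges passed, where 18.6% of all genes did, 8.47% as lower and 10.1% as higher. Without 1X PBS replicate 1 alone they were at -1.48 ± 0.40 and 0.98 ± 0.19 and passed too (adjusted p = 0.0456 and 0.0184, edgeR, 7.39% of all genes called). Both settings leave out the 1X PBS library with the lowest Ptgs2 (16.4 CPM) and the highest Ptges (71.9 CPM), which widens these differences by itself. Ptgds was the 1 gene of 8 without overlap, lower at 924 to 1318 CPM in 2X PBS libraries against 1326 to 1916 CPM in 1X PBS libraries, where 6.05% of all genes were lower without overlap. Its log2 fold change was -0.63 ± 0.29 (adjusted p = 0.776, edgeR), and -0.75 ± 0.27 (adjusted p = 0.0707) without the replicates numbered 1. Cell markers differed between the PBS groups in that last fit: 12 of 12 astrocyte markers passed as higher in 2X PBS (median log2 fold change 1.42), while 6 of 11 monocyte and macrophage, 6 of 8 neutrophil, 7 of 11 endothelial, 8 of 13 oligodendrocyte and 7 of 7 erythrocyte markers passed as lower. That fit leaves out 1X PBS replicate 1, whose astrocyte sum was the highest of its group. Its monocyte and macrophage, neutrophil, endothelial and erythrocyte sums were the lowest of its group. Leaving it out widens the differences of these markers by itself. The part of these cells in the Ptgs2, Ptges and Ptgds values was not tested. The schedules were injected and sorted as the labels state, and any batch that goes with a schedule cannot be told apart from it.

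**Figure D5:**
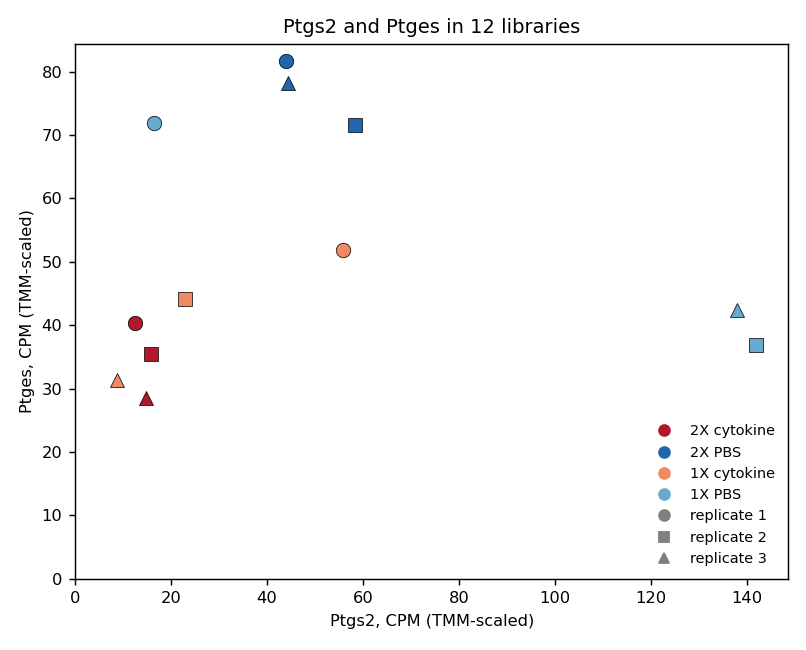
Ptgs2 on the horizontal and Ptges on the vertical axis, both in TMM-scaled CPM, 1 point per library, coloured by group and shaped by replicate number. The 2X cytokine libraries lay low for both genes (Ptgs2 up to 15.8 CPM, Ptges up to 40.3 CPM), the 2X PBS libraries had Ptges at 71.6 to 81.7 CPM, and 1X PBS replicates 2 and 3 had Ptgs2 at 142 and 138 CPM with Ptges at 36.8 and 42.4 CPM.

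Ptgs2 and Ptges, often induced together, did not share a pattern over the 12 libraries. The Pearson correlation of their log2(CPM + 0.5) was 0.29, against 0.78 between Ptgs2 and Pla2g4a, described with no p since the libraries share their groups, depth and preparation. Among 12041 protein-coding genes with a mean of at least 5 CPM, Ptgs2 was most like Rps28 (0.99) and Rps4x (0.98), which encode proteins of the small ribosomal subunit, and S100a11 (0.98). Ptges was most like Cxcl12 (0.94), a chemokine, Ctsl (0.91), a lysosomal protease, and Pdpn (0.90), podoplanin. For Ptgds the nearest were Jade1 (0.96), Carns1 (0.94) and Myrf (0.92), the last a transcription factor of myelin-forming oligodendrocytes. Those of Pla2g4a were Rpl31, Pycard and Eif4a1 (0.87 to 0.88), and those of Ptges3 Tmed2, Egln2 and Tmem30a (0.93 to 0.97). The nearest genes of the others were those of Ptgs1 (Trip11 and Coch, 0.81 to 0.85), Ptges2 (Ggnbp1, Zfyve26 and Etfa, 0.83 to 0.89) and Hpgd (Ppm1a, Brwd1 and Prrc2c, 0.77 to 0.83).

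Other genes of the pathway numbered 76, of which 52 were tested. In the fit of all 12 libraries 0 of 52 passed in any of the 5 comparisons by edgeR, and 2 to 11 had an unadjusted p under 0.05, as did 754 to 1402 of all 14490 genes. In the fit of the 2X libraries 6 were lower and 1 higher after cytokine, beside the 7.74% of all genes given above, and the median log2 fold change was -0.21 against 0.01. The lipoxygenase branch, which turns arachidonic acid into leukotrienes, held 5 of those 6 among its 10 tested genes. Alox5ap, which presents arachidonic acid to 5-lipoxygenase, had 2.86, 3.39 and 1.2 CPM in 2X cytokine libraries, against 36.4, 38.0 and 35.2 CPM in 2X PBS libraries. That is a log2 fold change of -3.90 ± 0.25 (SE, adjusted p = 1.98e-06, edgeR, 6 libraries). Alox5, the 5-lipoxygenase itself, was at 0.6 to 1.13 CPM in 2X cytokine libraries, no more than 3 counts each, and at 4.74 to 7.62 CPM in 2X PBS libraries (adjusted p = 0.00424, same fit). Ltb4r1, the leukotriene B4 receptor of white blood cells, was at 0 to 0.377 CPM in 2X cytokine libraries, below the floor of 3 counts, and at 3.87 to 5.93 CPM in 2X PBS libraries (adjusted p = 0.00263). Dpep1 and Ggt5, which process cysteinyl leukotrienes, were lower by log2 fold changes of -1.90 ± 0.34 and -0.67 ± 0.19. These genes moved with the white blood cell markers given above, whose part was not tested.

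The sixth gene that passed as lower was Anxa1, an inhibitor of phospholipase A2, with 56.8, 47.1 and 41.1 CPM in 2X cytokine libraries, against 79.1, 82.0 and 80.2 CPM in 2X PBS libraries (log2 fold change -0.73 ± 0.12, SE; adjusted p = 0.0029, edgeR, 6 libraries). Faah, which breaks down anandamide to arachidonic acid, was the 1 gene higher, with 38.6, 41.4 and 39.6 CPM in 2X cytokine libraries, against 32.6, 26.2 and 21.0 CPM in 2X PBS libraries (0.61 ± 0.16, adjusted p = 0.0323, same fit). Mgll, another source of arachidonic acid in brain, had 176 to 195 CPM in 2X cytokine libraries and 153 to 200.2 CPM in 2X PBS libraries, at 0.08 ± 0.11, and Plaat3, a phospholipase, was at 0.24 ± 0.11. None of the 7 other terminal synthases tested, 6 receptors or 8 transport and breakdown genes passed. Ptgis, the prostacyclin synthase, had 54.6 to 67.4 CPM in 2X cytokine libraries and 48.2 to 58.4 CPM in 2X PBS libraries, and Akr1b3, a prostaglandin F synthase, 48.2 to 60.0 CPM in 2X cytokine libraries and 52.9 to 59.2 CPM in 2X PBS libraries. The receptor with the highest level, the thromboxane receptor Tbxa2r, had 9.3 to 25.2 CPM in 2X cytokine libraries and 19.0 to 25.8 CPM in 2X PBS libraries, and Ptgir, the prostacyclin receptor, 6.6 to 14.7 CPM in 2X cytokine libraries and 9.15 to 11.3 CPM in 2X PBS libraries. Ptgr2, a prostaglandin reductase, and Acot1, a thioesterase, were at -0.02 ± 0.13 and 0.07 ± 0.11. Mgst1 and Lta4h, the most abundant of the leukotriene branch, were at -0.37 ± 0.13 and 0.30 ± 0.14 and did not pass, and Hsp90ab1 and Hsp90aa1, the chaperones that Ptges3 assists, were at -0.06 ± 0.08 and 0.10 ± 0.11. After a single injection 0 of 52 passed with all 12 libraries; without both replicates numbered 1, 6 of 54 tested passed as higher and 9 as lower, where 23.5% of all genes passed.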

How the data were processed

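RNA of sorted astrocytes was prepared with SMART-Seq2 and quantified by the submitters with kallisto 0.46.1 on GRCm38, per the labels' protocols. The deposited files list, for 142604 transcripts, the authors' estimated counts and TPM, with the effective lengths that kallisto derived. Per the labels' protocols, the authors themselves filtered low-count genes, scaled by TMM and tested with DESeq2; those results were not used here. kallisto divides reads shared by similar transcripts by likelihood, so levels of overlapping genes and isoforms are estimates.

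From the deposited estimated counts, sums per gene were rounded, filtered (filterByExpr), TMM-scaled and tested with edgeR 4.0.16 (quasi-likelihood F test, R 4.3.3) in 1 fit of all 12 libraries, with Benjamini-Hochberg adjustment over 14490 genes and a threshold of 0.05. Each SE was had by dividing the log2 fold change by the square root of its F. Alternatives used DESeq2 1.42.0, limma 3.58.1 and the libraries of a comparison alone. The scripts were tested on simulated data with less spread between replicates than in these libraries. That test does not show how many changes are found or falsely called at the spread seen here. Genes named beyond the 8 are those of the pathway list that passed in the 2X libraries, the 2 of each role with the highest mean CPM, and the 3 genes most like each member, of which 1 is not reported here. Gene positions are GENCODE M21. The 8 genes and the lists were chosen with earlier results of these data known. Replicate numbers did not pair the libraries. The 19 ATAC libraries were not analysed here.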

Additional observations from a re-analysis of the deposited data

Results flagged for a closer look

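For 2 genes the cytokine response differed between the schedules by a test of the difference itself, in edgeR without both 1X replicates numbered 1, a setting chosen after seeing the data. That setting leaves out the highest 1X cytokine and the lowest 1X PBS value of Ptgs2, which by itself makes its 1X response larger. It also leaves out the highest Ptges value of each 1X group, 51.9 CPM after cytokine and 71.9 CPM after PBS. The 1X log2 fold change of Ptges was -0.22 with all 12 libraries and -0.03 in that setting. The log2 difference, 2X minus 1X, was 1.25 ± 0.35 (SE) for Ptgs2 and -1.11 ± 0.24 for Ptges, with adjusted p-values of 0.0426 and 0.0107. With all 12 libraries the differences were -0.08 ± 0.94 for Ptgs2 and -0.93 ± 0.35 for Ptges, with adjusted p-values of 1 and 0.908.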

How the results depend on the processing

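For 2X cytokine against 2X PBS, 0 of 8 genes passed in the fit of all 12 libraries, 1 with DESeq2, 3 without the low count filter, 3 with the 6 libraries alone and 3 without both 1X replicates numbered 1. Leaving out 1 library gave 0 to 1 with the rest of the 12 and 2 to 3 with the 6 alone. For 1X cytokine against 1X PBS the count was 0, and 1 without the filter, 1 without both replicates numbered 1, and 0 to 1 with 1 library left out. For 2X PBS against 1X PBS it was 0, and 2 without both replicates numbered 1, and 0 to 2 with 1 library left out. For the difference of the responses it was 0, and 2 without both. The log2 fold change of Ptgs2 between 2X and 1X PBS, -1.02 ± 0.64, turned to 0.09 and 0.13 by limma-trend with pseudocounts of 1 and 0.1 TPM; the cause was not tested. Of 915 alternative values for single genes, 878 stayed on the same side of the threshold and were not counted as reversed. A reversal was counted only where the fold change in the fit of all 12 libraries exceeded its SE. Where it did not, 60 alternative values changed sign. With the replicate block 0 of 8 genes passed in each comparison. The deviations of same-numbered libraries from their group means correlated at -0.595, between the 1X replicates numbered 1, to 0.154. The numbers were therefore not taken as pairs. Ptges2 gave no value with a mean of at least 10 CPM. Depth limits Pla2g4a, Ptges2 and Hpgd most.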
